A study of Mus musculus with 9 samples.

Results

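Chemokines are small secreted proteins that guide migrating cells, and their receptors are G protein-coupled receptors on the surface of those cells. The genes described here are the chemokine ligands and receptors measured in mouse periprostatic fat, 58 of 22180 genes in all. They were chosen by name: every symbol that starts with Ccl, Cxcl, Ccr, Cxcr or Ackr followed by a digit, together with Cx3cl1, Cx3cr1, Xcl1, Xcr1, Pf4 and Ppbp, read from a probe set with 1 gene symbol. They comprise 36 ligand genes and 22 receptor genes. Where a gene had several probe sets the brightest was kept, which concerned 1 of the 58 (Ccl27a, with 2).

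The fat around the prostate was taken from 9 male C57BL/6J mice, each on its own Affymetrix Mouse Gene 2.0 ST array, at 18 weeks of age. High fat mice (n = 5) had been fed for 12 weeks on a feed whose fat supplied 60 percent of the calories, and low fat mice (n = 4) on a feed with 10 percent, both from 6 weeks of age with free access to food. The labels give no transgene, drug or pooling of mice, and number the mice within each diet. Values are the deposited log2 expression values of whole tissue, and in whole tissue more cells of a type and more RNA per cell cannot be told apart.

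Ligands fall into CC, CXC, XC and CX3C classes by the spacing of their first cysteines, and each class binds receptors of the same class. Most receptors signal through inhibitory G proteins to the machinery of cell movement, whereas the atypical receptors (Ackr genes) bind chemokines without that signal and transport or remove them. In obese adipose tissue the pathway is best known for the recruitment of monocytes by Ccl2 through its receptor Ccr2, after which the monocytes become macrophages.

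Before the results, 3 features of the arrays bear on them. High fat mice 1 and 2 had slightly wider distributions (SD 1.87 over all rows of the table, against 1.83 to 1.84 on the other arrays), low fat mouse 2 had high smooth muscle genes (a mean of 10.70 over the 8 listed markers, against 8.62 to 9.06 in the other mice), and high fat mouse 1 had high skeletal muscle genes (8.76 over 8 markers, against 6.37 to 7.42). The adipocyte genes Adipoq and Plin1 lay above 10.9 on every array, and all 9 adipocyte markers lay above the median of all gene means. Of 9 adipocyte markers 7 were lower and 1 was higher in high fat mice. Of 10 prostate and seminal vesicle markers 8 lay below the median of all gene means and 2, the general epithelial keratins Krt8 and Krt18, above it. The list mean was 5.76 to 5.91 in high fat mice and 5.74 to 5.84 in low fat mice, and 0 of 10 passed (0 at an unadjusted p under 0.05). Skeletal muscle markers passed in 0 of 8 and mesothelial markers in 0 of 6 (0 of either at an unadjusted p under 0.05), smooth muscle markers rose in 1 of 8 (Synpo2) and lymph node stroma markers in 1 of 8 (Pdpn).

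In high fat mice 12 ligand genes and 5 receptor genes were higher than in low fat mice, and 2 ligand genes, Cxcl9 and Cxcl11, were lower. The test was limma's moderated test across all 22180 genes with Benjamini-Hochberg adjustment and a threshold of 0.05, by which 21.5 percent of all genes were called, 12.4 percent higher and 9.13 percent lower. Of the 58 chemokine and receptor genes 19 were called, a share of 32.8 percent, and 28 had an unadjusted p under 0.05. Among ligands the share was 38.9 percent and among receptors 22.7 percent, against 21.5 percent of all genes. Of the 22 receptors 8 lay above the median of all gene means, all 5 called ones among them, against 22 of 36 ligands. The shares of ligands and receptors were not compared at equal brightness. The groups of arrays did not overlap in 16 of the 58 genes, a share of 27.6 percent, against 20.7 percent of all genes. In 14 of them high fat mice were higher, where the share of all genes was 11.6 percent, and in 2 lower, where it was 9.15 percent. A called difference of 1 log2 unit or more was reached by 5 members (Ccl7, Ccl2, Ccl3, Cxcl14 and Ccl9), and by 1.7 percent of all genes.

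The median log2 difference (high fat minus low fat) was 0.07 over the 58 genes and -0.0011 over all genes. Calls lay mostly among the brighter members. Of the 30 members whose mean over the 9 arrays lay above the median of all gene means (6.96), 18 were called, a share of 60.0 percent, against 36.2 percent of all genes above it. Below it 1 of 28, described as dim, passed, namely Cxcl11. No detection calls were used, so whether the dim members lie above background was not determined.

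**Figure D1:**
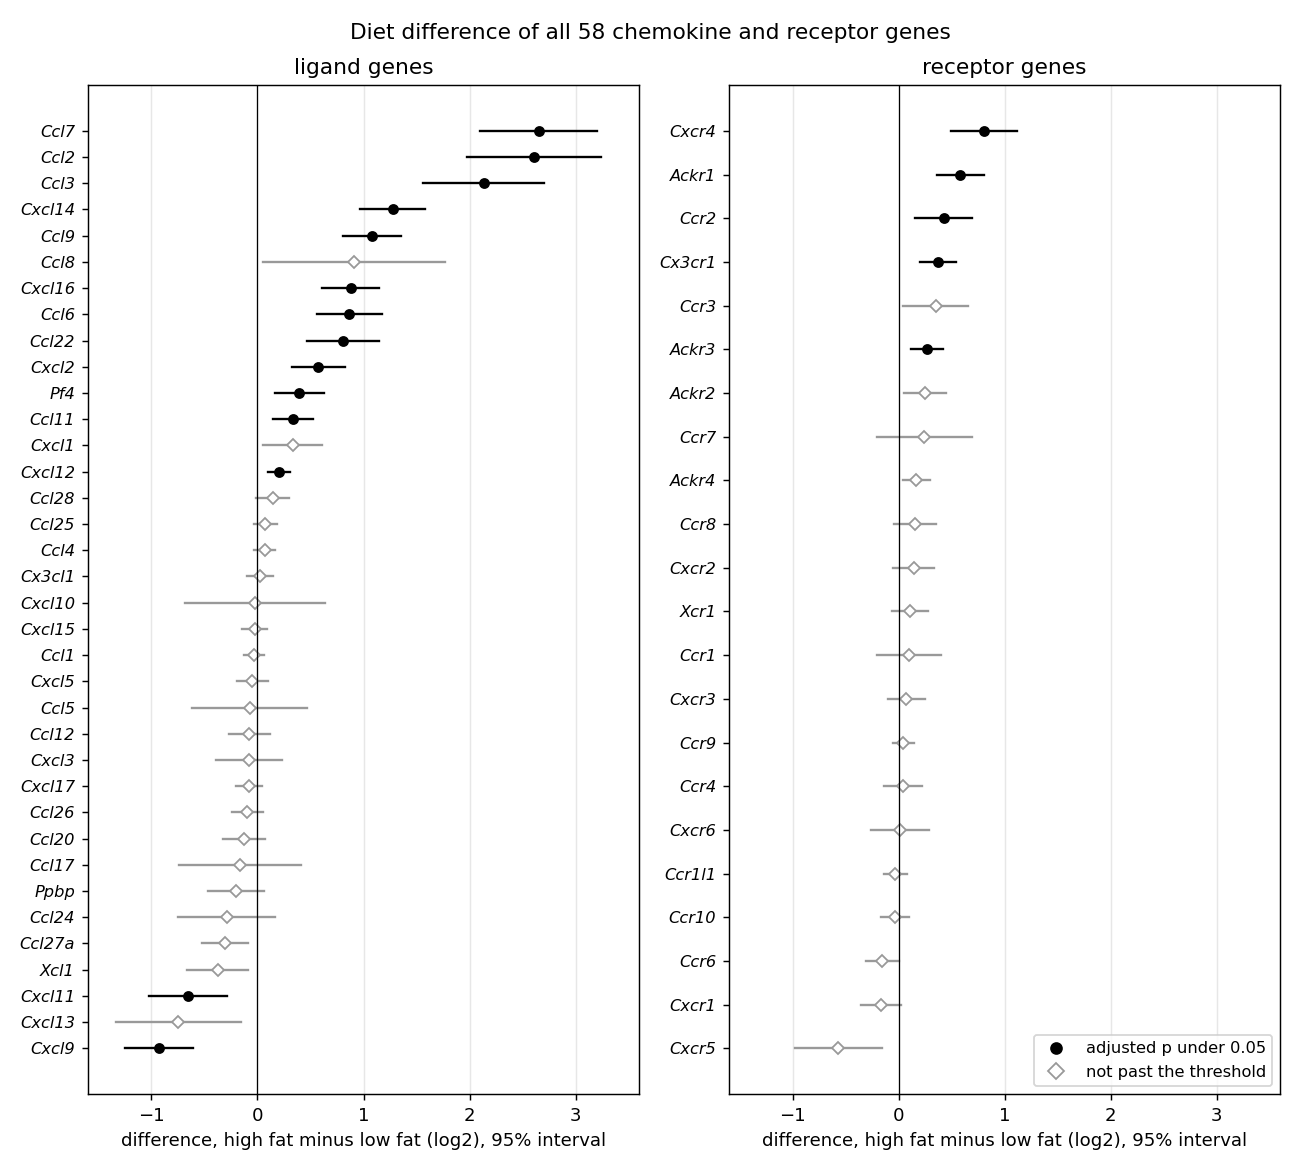
Log2 differences between the diets (high fat minus low fat) and their 95% intervals from limma, for the 36 ligand genes (left) and the 22 receptor genes (right), each sorted by size. Filled circles passed an adjusted p of 0.05; Ccl7, Ccl2 and Ccl3 stand at 2.65, 2.61 and 2.13, and Cxcl9 and Cxcl11 at -0.93 and -0.66.

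The monocyte chemoattractants Ccl2 and Ccl7, which attract monocytes through Ccr2, had the largest differences of the family. Ccl2 (probe set 17254041) read 10.95, 10.63, 10.89, 11.29 and 10.95 in high fat mice 1 to 5, against 9.30, 7.66, 8.39 and 7.99 in low fat mice 1 to 4. All high fat mice lay above all low fat mice, and low fat mouse 1 was the highest of its group. Its means were 10.94 ± 0.23 in high fat mice and 8.33 ± 0.71 in low fat mice (SD, n = 5 and 4), a 6.11-fold increase with a log2 difference of 2.61 ± 0.28 (SE, limma adjusted p = 0.000224). Ccl7 (probe set 17254047) read 10.47, 10.35, 10.61, 11.25 and 10.65 in high fat mice 1 to 5, against 8.68, 7.57, 8.20 and 7.62 in low fat mice 1 to 4. Again the groups did not overlap, and the difference of 2.65 ± 0.25 (SE) was a 6.28-fold increase (limma adjusted p = 0.00012).

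The other measured genes of that subfamily were not called. Ccl8, a ligand of Ccr8 in mice, read 8.36, 8.73, 8.50, 8.20 and 9.19 in high fat mice 1 to 5, against 7.56, 9.03, 6.91 and 7.26 in low fat mice 1 to 4. Low fat mouse 2 lay among the high fat mice, whereas the other low fat mice lay below all of them. Its difference was 0.91 ± 0.38 (SE, limma adjusted p = 0.13), and without low fat mouse 2, the mouse with high smooth muscle genes, it was 1.35 with an adjusted p of 0.00374. Ccl12, a mouse ligand of Ccr2, was dim at 5.35 to 5.62 in high fat mice and 5.38 to 5.75 in low fat mice, with a difference of -0.08 and a 95% interval of -0.27 to 0.11.

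Ccr2, the receptor that releases monocytes from bone marrow and draws them into tissue, also rose. It read 9.10, 8.96, 8.78, 9.33 and 9.02 in high fat mice 1 to 5, against 8.84, 8.42, 8.75 and 8.46 in low fat mice 1 to 4, so that the groups overlapped. The increase was 1.34-fold (log2 difference 0.42 ± 0.12, SE, limma adjusted p = 0.0308). The call was lost in 6 of the 9 fits that left out 1 mouse, namely without any of high fat mice 1, 2, 4 and 5 or low fat mice 2 and 4, where the difference stayed between 0.35 and 0.44 and the adjusted p between 0.0515 and 0.0875. Of the other 6 monocyte markers 0 passed and 2 had an unadjusted p under 0.05. Their differences were 0.53 for Vcan, whose groups did not overlap, 0.21 for Fn1, 0.07 for Ly6c1, -0.09 for Ly6c2, -0.10 for Plac8 and -0.22 for Chil3.

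Macrophage inflammatory ligands rose in 3 of 5 members. Ccl3, which attracts monocytes and other leukocytes through Ccr1, read 8.95, 9.26, 9.76, 8.49 and 8.40 in high fat mice 1 to 5, against 6.93, 6.78, 7.10 and 6.55 in low fat mice 1 to 4. The lowest high fat mouse lay more than 1 log2 unit above the highest low fat mouse. The increase was 4.39-fold, with a log2 difference of 2.13 ± 0.26 (SE) and a limma adjusted p of 0.000365. Ccl9, a rodent ligand of Ccr1, read 12.07, 12.09, 12.15, 11.88 and 12.00 in high fat mice 1 to 5, against 11.32, 10.60, 11.01 and 10.92 in low fat mice 1 to 4. It was 2.11-fold higher (log2 difference 1.08 ± 0.12, SE, limma adjusted p = 0.000278). Low fat mouse 1 was the highest low fat mouse for it. Ccl6, another rodent ligand of Ccr1, read 11.26, 11.39, 11.31, 11.09 and 11.48 in high fat mice 1 to 5, against 10.87, 10.19, 10.50 and 10.20 in low fat mice 1 to 4. It was 1.82-fold higher (log2 difference 0.87 ± 0.14, SE, limma adjusted p = 0.00162). The groups did not overlap for any of these genes, and low fat mouse 1 was again highest in its diet for Ccl6.

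Ccl5 and Ccl4, both named in the same subfamily, were not called. Ccl5, made mainly by T and NK cells, read 9.71, 10.11, 9.42, 9.48 and 9.01 in high fat mice 1 to 5, against 9.71, 10.19, 9.43 and 9.13 in low fat mice 1 to 4, and the groups covered the same range. Its difference of -0.07 had a 95% interval of -0.61 to 0.47. Ccl4 was flat at 6.90 to 7.05 in high fat mice and 6.82 to 6.90 in low fat mice, and 5 of the 9 arrays held exactly the same value for it. Equal values on 3 or more arrays occurred in 6 of the 58 genes (Ccl4, Ccl20, Ccl25, Ccr9, Ccr10 and Cx3cl1), all uncalled, and in 21.2 percent of all genes. Ccr1, the receptor shared by several of these ligands, was not called either, at 6.60 to 6.97 in high fat mice and 6.36 to 7.02 in low fat mice (difference 0.10, 95% interval -0.21 to 0.40).

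Macrophage markers moved with these ligands. Of 11 measured markers 9 rose, among them Cd68, and 1 fell, Mertk. The log2 of the summed linear values of the list lay between 14.73 and 15.18 in high fat mice and between 14.03 and 14.30 in low fat mice. Lipid-associated macrophage markers rose in 6 of 9, with a median log2 difference of 1.56 and a range from -0.065 to 4.98. Their log2 sum was 15.25 to 15.57 in high fat mice and 14.78 to 14.84 in low fat mice. That sum includes the bright, uncalled Lpl (means 13.65 in high fat and 13.72 in low fat mice) and Cd36 (13.58 and 13.59). It therefore shows little of the larger rises in the list. No marker is at 0, since log2 array values have no zero. Their part in the rise of the chemokine genes was not tested.

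**Figure D2:**
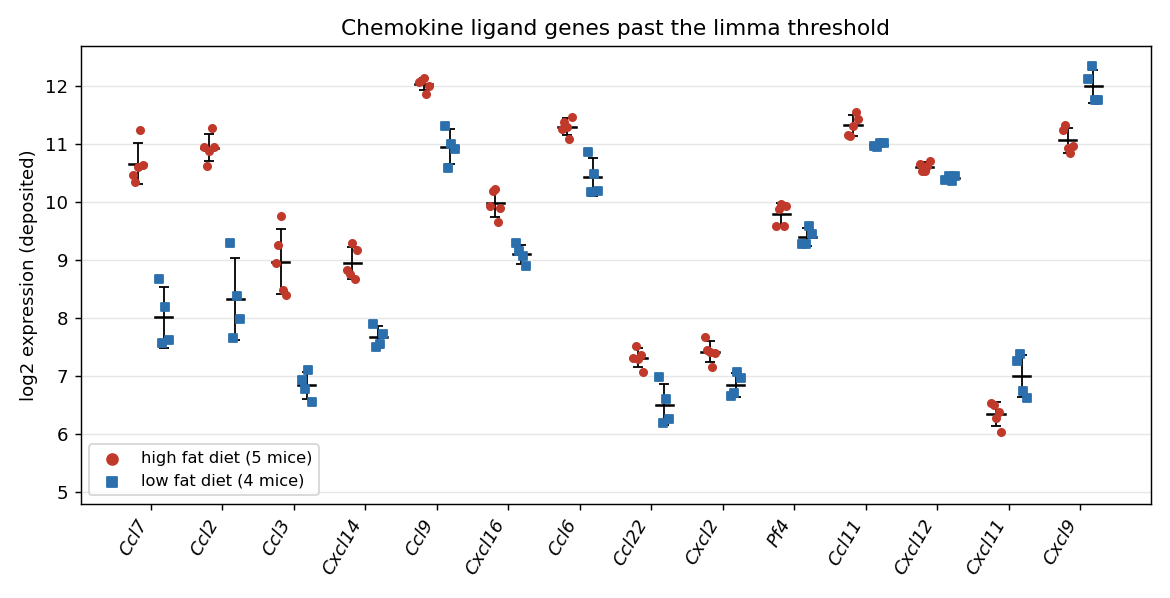
Deposited log2 expression of the 14 ligand genes that passed the limma threshold, with 1 point per mouse (circles high fat, squares low fat) and the group mean ± SD in black. The groups are separate for every gene but Pf4, and the low fat squares lie above the high fat circles for Cxcl9 and Cxcl11 alone.

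Ccl11, an eotaxin that attracts eosinophils through Ccr3, read 11.17, 11.15, 11.32, 11.56 and 11.44 in high fat mice 1 to 5, against 10.97, 10.95, 11.03 and 11.03 in low fat mice 1 to 4. The difference was small, 1.26-fold without overlap (log2 difference 0.33 ± 0.08, SE, limma adjusted p = 0.0167). It exceeded the SD within each diet (0.18 in high fat and 0.04 in low fat mice), but not the range of the high fat mice, 11.15 to 11.56. The other eotaxins were not called: Ccl24 lay at 8.31 to 8.91 in high fat mice and 8.35 to 9.43 in low fat mice and the dim Ccl26 at 5.18 to 5.37 in high fat mice and 5.15 to 5.47 in low fat mice. Ccr3 read 5.56, 6.05, 5.93, 5.37 and 5.48 in high fat mice 1 to 5, against 5.48, 5.25, 5.21 and 5.37 in low fat mice 1 to 4, where high fat mice 2 and 3 stood above the rest, and its difference of 0.35 did not pass (limma adjusted p = 0.105). In mast cell and eosinophil markers 1 of 8 passed, the dim Siglecf, which was higher in high fat mice without overlap (0.23, limma adjusted p = 0.0458). The eosinophil genes Prg2 and Epx were also dim and not called, with differences of -0.02 and -0.01.

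Ccl22, a ligand of Ccr4 made by dendritic cells and macrophages, was 1.75-fold higher. It read 7.32, 7.52, 7.30, 7.37 and 7.07 in high fat mice 1 to 5, against 6.98, 6.20, 6.60 and 6.26 in low fat mice 1 to 4, with a log2 difference of 0.81 ± 0.15 (SE, limma adjusted p = 0.00425). Ccl17, the other well-known ligand of Ccr4, read 6.25, 6.71, 6.00, 6.11 and 6.29 in high fat mice 1 to 5, against 7.34, 5.96, 6.18 and 6.27 in low fat mice 1 to 4. Low fat mouse 1 alone lay above 7, and without it the difference turned, at 0.13 in place of -0.17, neither past the threshold. Ccr4 itself was dim, at 4.91 to 5.29 in high fat mice and 4.92 to 5.16 in low fat mice. Dendritic cell markers, a list that also holds the receptor gene Xcr1, rose in 2 of 7.

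Neutrophil-attracting CXC ligands, which carry the ELR sequence and bind Cxcr2, rose in 1 of 6 members. Cxcl2 read 7.68, 7.46, 7.41, 7.16 and 7.39 in high fat mice 1 to 5, against 6.65, 6.70, 7.07 and 6.96 in low fat mice 1 to 4. The groups did not overlap, by a narrow gap between high fat mouse 4 and low fat mouse 3. The increase was 1.49-fold (log2 difference 0.58 ± 0.11, SE, limma adjusted p = 0.00514). Cxcl1, at 6.51, 6.49, 6.37, 6.47 and 6.01 in high fat mice 1 to 5, against 6.23, 5.72, 6.13 and 6.08 in low fat mice 1 to 4, had a difference of 0.33 that did not pass (limma adjusted p = 0.0934). High fat mouse 5 alone lay among the low fat mice, and without it Cxcl1 passed, with 0.42 and an adjusted p of 0.0191. Cxcl3 was dim at 4.87 to 5.42 in high fat mice and 4.97 to 5.53 in low fat mice, as were Cxcl5 and Cxcl15.

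Ppbp, the platelet basic protein, had a difference of -0.20 that did not pass (limma adjusted p = 0.273). The receptors of this group were dim and not called, Cxcr2 at 6.65 to 7.09 in high fat mice and 6.63 to 6.78 in low fat mice and Cxcr1 at 5.98 to 6.35 in high fat mice and 6.22 to 6.47 in low fat mice. Neutrophil markers moved in both directions, with 1 of 8 higher (S100a8) and 2 lower (Retnlg and Mmp9), and 4 differences positive and 4 negative. The mean over the list overlapped between the diets, at 6.08 to 6.28 in high fat mice and 6.22 to 6.30 in low fat mice. The log2 sum did not, at 9.64 to 9.95 in high fat mice and 10.22 to 10.61 in low fat mice, and it includes Mmp9, with means of 7.85 ± 0.17 in high fat mice and 9.55 ± 0.34 in low fat mice (SD, n = 5 and 4). No lower neutrophil signal is read from that sum.

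The promoters of Cxcl1, Cxcl2 and Cxcl3 are shown because these genes of 1 cluster share a motif while Cxcl2 alone was called, and that of Ccl9 because it holds the same motif. Sequences are RefSeq's on GRCm38.p6, 250 bases before to 50 after the gene start, 5′ to 3′ on the gene's strand, with matches to an NF-kappaB-type motif (GGG, any 2 bases, then TTTCC) on either strand in capitals. Cxcl1 is at chr5:90890995-90891294 (plus strand), Cxcl2 at chr5:90903649-90903948 (plus strand), Cxcl3 at chr5:90785851-90786150 (plus strand) and Ccl9 at chr11:83578587-83578886 (minus strand).
Cxcl1: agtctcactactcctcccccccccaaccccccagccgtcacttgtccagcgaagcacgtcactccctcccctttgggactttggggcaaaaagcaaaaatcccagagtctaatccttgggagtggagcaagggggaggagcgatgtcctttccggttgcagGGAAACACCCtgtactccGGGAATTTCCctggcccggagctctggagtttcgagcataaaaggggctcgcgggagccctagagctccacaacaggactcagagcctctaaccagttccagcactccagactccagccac
Cxcl2: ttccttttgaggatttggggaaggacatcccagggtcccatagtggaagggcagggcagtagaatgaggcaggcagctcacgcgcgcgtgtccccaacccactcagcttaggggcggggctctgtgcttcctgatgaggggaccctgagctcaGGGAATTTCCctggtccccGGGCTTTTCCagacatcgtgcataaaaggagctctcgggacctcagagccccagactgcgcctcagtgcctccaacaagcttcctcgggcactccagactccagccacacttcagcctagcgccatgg
Cxcl3: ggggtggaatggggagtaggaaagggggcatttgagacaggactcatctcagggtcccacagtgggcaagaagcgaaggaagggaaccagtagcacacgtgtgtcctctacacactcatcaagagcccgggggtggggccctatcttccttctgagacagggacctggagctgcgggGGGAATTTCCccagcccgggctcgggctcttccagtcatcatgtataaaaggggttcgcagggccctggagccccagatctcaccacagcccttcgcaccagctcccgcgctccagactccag
Ccl9: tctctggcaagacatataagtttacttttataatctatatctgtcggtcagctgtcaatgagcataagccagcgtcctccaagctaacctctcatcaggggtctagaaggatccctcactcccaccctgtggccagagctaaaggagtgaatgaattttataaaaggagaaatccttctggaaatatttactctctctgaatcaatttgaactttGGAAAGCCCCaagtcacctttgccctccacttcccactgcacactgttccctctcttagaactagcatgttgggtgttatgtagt

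The same 10 letters, GGGAATTTCC, start 71 bases before the gene start in Cxcl1, 97 in Cxcl2 and 73 in Cxcl3. Cxcl1 holds another match on the opposite strand and Cxcl2 another on the same strand, whereas the only match of Ccl9, GGAAAGCCCC, is on the opposite strand. RefSeq promoters were matched for 44 of the 58 genes (48 windows), and the motif was in 6 of these genes (Ccl9, Ccl20, Ccr3, Cxcl1, Cxcl2 and Cxcl3). The search did not cover the other 14 genes, which are Ccl11, Ccl2, Ccl24, Ccl26, Ccl4, Ccl5, Ccl7, Ccr10, Ccr7, Cxcl11, Cxcl16, Cxcl17, Cxcl5 and Cxcr5. In all 32851 promoter windows of the table its share was 1.63 percent. Of the 6 genes Ccl9 and Cxcl2 were called. Other motifs searched on both strands were TATAAA (15 member genes and 13.6 percent of all windows), TGANTCA (9 and 7.81 percent) and TTCNNNGAA (4 and 8.3 percent). A match is a string of letters, not a binding site, and the motifs and the printed genes were chosen with the values known.

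Interferon-induced CXC ligands are a class known to attract activated T and NK cells through Cxcr3. They held the only 2 genes of the family that passed as lower in the test over all 22180 genes, Cxcl9 and Cxcl11. The values are of RNA, and whether Cxcl11 protein is made in this strain was not measured. With arrays centred on their medians or quantile normalization repeated, Cxcr5, Xcl1 and Ccl27a were called lower as well (-0.61, -0.42 and -0.35 with centring, limma adjusted p = 0.0317, 0.0403 and 0.0286). With the deposited values and dim genes left out of the test, these 3 and Cxcl13 were called lower (limma adjusted p from 0.0312 to 0.0436), and Cxcr5 was also called with a trended, robust eBayes fit (0.0458). Cxcl9 (probe set 17449710) read 11.26, 11.34, 10.93, 10.86 and 10.97 in high fat mice 1 to 5, against 12.12, 12.35, 11.77 and 11.77 in low fat mice 1 to 4. Every high fat mouse lay below every low fat mouse, with means of 11.07 ± 0.21 in high fat mice and 12.00 ± 0.28 in low fat mice (SD, n = 5 and 4). The gene was 1.91-fold lower (log2 difference -0.93 ± 0.14, SE, limma adjusted p = 0.00134). Cxcl11 read 6.54, 6.49, 6.28, 6.39 and 6.03 in high fat mice 1 to 5, against 7.26, 7.37, 6.75 and 6.63 in low fat mice 1 to 4. The high fat mice again lay below the low fat mice, although high fat mouse 1 and low fat mouse 4 were close. It was 1.58-fold lower (log2 difference -0.66 ± 0.16, SE, limma adjusted p = 0.018), its mean over the 9 arrays was below the median of all gene means, and without low fat mouse 1 the call was lost (-0.57, adjusted p = 0.0525).

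Cxcl10, the third ligand of Cxcr3, read 8.15, 8.08, 7.73, 8.16 and 7.95 in high fat mice 1 to 5, against 9.12, 8.0, 7.39 and 7.65 in low fat mice 1 to 4. Low fat mouse 1 lay above all other mice, and the remaining values of the groups overlapped. The difference of -0.02 had a 95% interval of -0.68 to 0.63, and without low fat mouse 1 it was 0.34, also not called. Cxcr3 was dim in both diets, at 6.63 to 6.83 in high fat mice and 6.42 to 6.81 in low fat mice. T and NK cell markers were called lower in 1 of 11 (Ncr1), and the log2 sum of that list was 9.97 to 10.38 in high fat mice and 10.25 to 10.69 in low fat mice. Ifng, the main inducer of these ligands, was dim at 6.20 to 6.35 in high fat mice and 6.23 to 6.34 in low fat mice, where detection was not determined, and had a difference of 0.0022 (limma adjusted p = 0.981).

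Promoters of Cxcl9 and Cxcl10 are given because both hold a shorter NF-kappaB-type motif, GGGANTTCC, in capitals, while Cxcl9 was called and Cxcl10 was not. The window of Cxcl9 is chr5:92328030-92328329 (minus strand) and that of Cxcl10 is chr5:92348840-92349139 (minus strand), in the same build and layout as above.
Cxcl9: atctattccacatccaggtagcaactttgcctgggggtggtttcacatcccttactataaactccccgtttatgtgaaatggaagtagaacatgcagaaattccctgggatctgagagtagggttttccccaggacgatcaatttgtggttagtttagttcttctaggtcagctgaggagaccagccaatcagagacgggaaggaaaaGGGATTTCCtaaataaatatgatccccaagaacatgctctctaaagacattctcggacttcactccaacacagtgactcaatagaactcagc
Cxcl10: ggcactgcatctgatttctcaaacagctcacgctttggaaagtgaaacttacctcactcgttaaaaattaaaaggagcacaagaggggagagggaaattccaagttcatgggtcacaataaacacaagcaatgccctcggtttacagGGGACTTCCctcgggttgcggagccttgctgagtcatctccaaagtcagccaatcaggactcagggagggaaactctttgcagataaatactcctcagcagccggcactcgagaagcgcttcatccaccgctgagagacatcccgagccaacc

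The match is GGGATTTCC, from 42 bases before the gene start, in Cxcl9 and GGGACTTCC, from 103 bases before, in Cxcl10. Among member genes it was also in Ccl25 and Ccr6, and in 1.68 percent of all promoter windows. The interferon-response type motif (TTTC, any 2 bases, then TTTC) was in Cxcl10 and Cxcl14 and in 3.44 percent of all windows, on either strand. These letters were not found in the Cxcl9 window, which says nothing of its regulation elsewhere.

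Homeostatic and other CXC ligands rose in 4 of 5 members. Cxcl14, a chemokine of epithelia, fibroblasts and adipose tissue, read 8.84, 8.76, 9.30, 8.68 and 9.17 in high fat mice 1 to 5, against 7.91, 7.50, 7.56 and 7.73 in low fat mice 1 to 4. All high fat mice lay well above all low fat mice. The increase was 2.42-fold (log2 difference 1.28 ± 0.14, SE, limma adjusted p = 0.000221). Cxcl16, a membrane-bound chemokine and scavenger receptor that binds Cxcr6, read 9.93, 10.19, 10.22, 9.67 and 9.90 in high fat mice 1 to 5, against 9.29, 9.16, 9.07 and 8.90 in low fat mice 1 to 4. It was 1.84-fold higher without overlap (log2 difference 0.88 ± 0.12, SE, limma adjusted p = 0.000701), while its receptor Cxcr6 was dim and level, at 6.05 to 6.44 in high fat mice and 5.95 to 6.54 in low fat mice (difference 0.01, 95% interval -0.26 to 0.29).

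Cxcl12, the ligand that keeps haematopoietic and stromal cells in place through Cxcr4, moved little. It read 10.65, 10.55, 10.54, 10.62 and 10.72 in high fat mice 1 to 5, against 10.38, 10.46, 10.37 and 10.45 in low fat mice 1 to 4, a 1.15-fold increase (log2 difference 0.20 ± 0.05, SE, limma adjusted p = 0.0136). Groups did not overlap, but the call was lost with arrays centred on their medians (0.16, adjusted p = 0.0502) and with quantile normalization repeated (0.15, adjusted p = 0.0809). Cxcr4 read 9.84, 9.40, 9.29, 9.23 and 9.17 in high fat mice 1 to 5, against 8.55, 8.64, 8.81 and 8.31 in low fat mice 1 to 4. It was the receptor gene with the largest increase, 1.75-fold without overlap (log2 difference 0.80 ± 0.14, SE, limma adjusted p = 0.0028). Ackr3, an atypical receptor that removes Cxcl12, read 8.48, 8.77, 8.70, 8.65 and 8.75 in high fat mice 1 to 5, against 8.49, 8.45, 8.39 and 8.27 in low fat mice 1 to 4. High fat mouse 1 lay within the low fat range, and the 1.20-fold increase (limma adjusted p = 0.0189) was not called with quantile normalization repeated (0.21, adjusted p = 0.0578) or without low fat mouse 4 (0.23, adjusted p = 0.055).

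Pf4, platelet factor 4, is also made by tissue macrophages. It read 9.60, 9.89, 9.96, 9.59 and 9.94 in high fat mice 1 to 5, against 9.28, 9.28, 9.60 and 9.45 in low fat mice 1 to 4, with overlap at low fat mouse 3, and the increase of 1.31-fold (log2 difference 0.39 ± 0.10, SE, limma adjusted p = 0.0221) lost its call without high fat mouse 2 or 3 or low fat mouse 1 or 2 (0.35 to 0.37, adjusted p from 0.0531 to 0.062). Platelet markers passed in 0 of 4, although 2 had an unadjusted p under 0.05. Cxcl17, a mucosal chemokine, was dim and not called. Fibroblast and progenitor markers rose in 6 of 9, with a log2 sum of 14.51 to 14.89 in high fat mice and 14.11 to 14.36 in low fat mice. Their part in the rise of Cxcl12 and Cxcl14 was not tested.

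Cx3cr1, the receptor of Cx3cl1 on monocytes and macrophages, read 7.75, 7.83, 7.98, 7.94 and 8.01 in high fat mice 1 to 5, against 7.39, 7.48, 7.72 and 7.52 in low fat mice 1 to 4. The groups nearly touched, with high fat mouse 1 just above low fat mouse 3. It was 1.29-fold higher (log2 difference 0.37 ± 0.08, SE, limma adjusted p = 0.00645), while its membrane-bound ligand Cx3cl1 lay at 7.17 to 7.44 in high fat mice and 7.21 to 7.32 in low fat mice, with a 95% interval for the difference of -0.10 to 0.15. Xcl1, a lymphocyte chemokine, had a difference of -0.37 that did not pass (limma adjusted p = 0.068), and its receptor Xcr1, a marker of cross-presenting dendritic cells, was dim.

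Atypical receptors had positive differences in 4 of 4 members, of which 2 were called, Ackr3 above and Ackr1. Ackr1, which carries chemokines across the endothelium of venules and binds them on red cells, read 8.37, 8.57, 8.33, 8.58 and 8.59 in high fat mice 1 to 5, against 7.83, 8.14, 7.99 and 7.66 in low fat mice 1 to 4. It was 1.50-fold higher without overlap (log2 difference 0.58 ± 0.10, SE, limma adjusted p = 0.00237). Ackr2, a scavenger of inflammatory CC chemokines, differed by 0.25 (limma adjusted p = 0.079), and the dim Ackr4, a scavenger of Ccl19, Ccl21 and Ccl25, by 0.17 (limma adjusted p = 0.0589). Endothelial and lymphatic markers rose in 1 of 8, Vwf, and fell in 1, Kdr, with log2 sums of 13.12 to 13.32 in high fat mice and 13.17 to 13.34 in low fat mice.

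**Figure D3:**
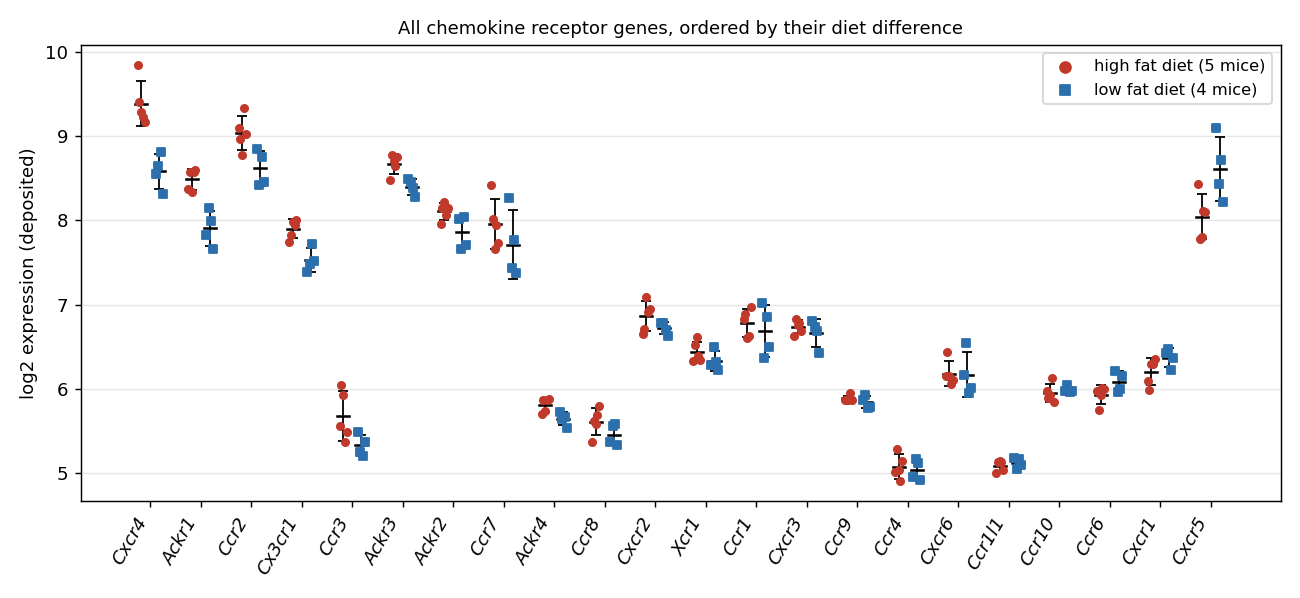
Deposited log2 expression of all 22 receptor genes, with 1 point per mouse (circles high fat, squares low fat) and the group mean ± SD in black, ordered by the difference between the diets. Groups are separate for Cxcr4, Ackr1 and Cx3cr1, and the squares lie mostly above the circles for Cxcr5.

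Cxcl13 and its receptor Cxcr5, which bring B cells into follicles, were lower by value without passing. Cxcl13 read 10.13, 9.38, 9.79, 10.40 and 10.88 in high fat mice 1 to 5, against 11.12, 10.59, 10.72 and 11.02 in low fat mice 1 to 4. High fat mouse 5 lay among the low fat mice and the other high fat mice lay below them, and the difference was -0.75 ± 0.26 (SE, limma adjusted p = 0.0725). Without high fat mouse 5 it passed, at -0.93 with an adjusted p of 0.0146. Cxcr5 read 8.43, 7.78, 7.80, 8.11 and 8.10 in high fat mice 1 to 5, against 9.09, 8.43, 8.72 and 8.21 in low fat mice 1 to 4, a difference of -0.57 ± 0.18 (SE, limma adjusted p = 0.0524) that passed in 7 of 20 alternatives, among them both other scalings. B cell markers passed in 0 of 9, with 4 at an unadjusted p under 0.05 and all 9 differences negative, and their log2 sum lay between 10.45 and 11.73 in high fat mice and between 11.36 and 12.64 in low fat mice. Their part in these values was not tested.

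Ccr7, which leads dendritic and T cells to lymph nodes, read 8.41, 8.02, 7.66, 7.95 and 7.73 in high fat mice 1 to 5, against 8.26, 7.44, 7.77 and 7.38 in low fat mice 1 to 4 and was not called (difference 0.24, 95% interval -0.20 to 0.69). Its ligands Ccl19 and Ccl21, like Ccl27b, were read only by probe sets shared among several gene copies and have no gene value here. Ccl27a, a skin chemokine, was lower by value (-0.31 ± 0.10, SE, limma adjusted p = 0.0529). It has near-identical copies, so that the copy behind this signal is uncertain. Ligands of barrier tissues passed in 0 of 4, the others being Ccl20, Ccl25 and Ccl28 with differences from -0.13 to 0.14, and 1 of 4 had an unadjusted p under 0.05.

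The remaining members were dim and uncalled. Ccl1 had a difference of -0.03, Ccr1l1 -0.03, Ccr6 -0.15, Ccr8 0.15, Ccr9 0.04 and Ccr10 -0.03. Over the 27 uncalled members below the median of all gene means, Ccr4, Ccr3, Cxcl3, Cxcl5, Cxcl15, Cxcl17, Ccl12 and Ccl26 among them, differences ran from -0.17 to 0.35, and 3 had an unadjusted p under 0.05.

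Many members are neighbours in the genome, and calls were mixed within each run of 5 or more adjacent members. In the gene order of GRCm38.p6, Ccl2, Ccl7, Ccl11, Ccl12, Ccl8 and Ccl1 follow each other on chromosome 11 with no other protein-coding gene between them in the table used. The first 3 were called higher, with log2 differences of 2.61, 2.65 and 0.33, and the next 3 were not, with -0.08, 0.91 and -0.03. In the other run on chromosome 11, Ccl9, Ccl6 and Ccl3 were called higher between the uncalled Ccl5 and Ccl4. Of 7 adjacent CXC ligand genes on chromosome 5, Pf4 and Cxcl2 were called higher and 5 were not. Of 6 adjacent receptor genes on chromosome 9, from Cxcr6 to Ccr2, Ccr2 alone was called, and in the run of Ccl22, Cx3cl1 and Ccl17 on chromosome 8 only Ccl22 was. Whether neighbours differed from each other in their response was not tested.

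**Figure D4:**
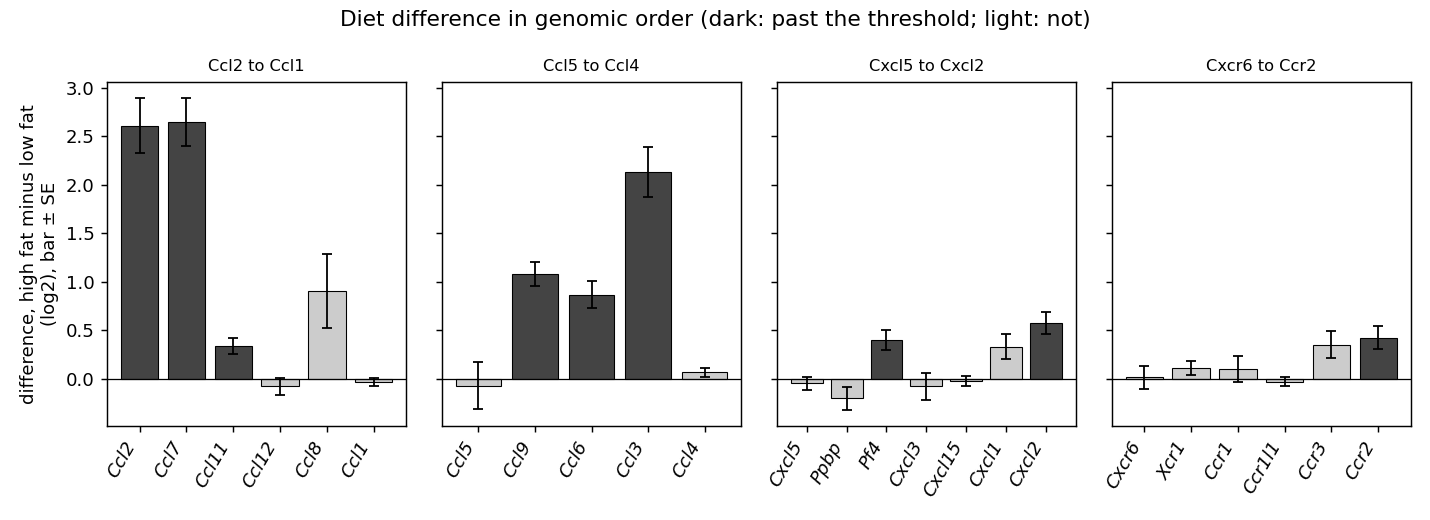
Log2 differences between the diets (high fat minus low fat) as bars, each ± SE from limma, for 4 runs of 5 or more adjacent members in genomic order. Dark bars passed an adjusted p of 0.05, as Ccl2 and Ccl7 did at 2.61 and 2.65 beside Ccl12 at -0.08.

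Within a diet the mice did not rank alike for all members. Low fat mouse 1 was the highest low fat mouse for 14 of the 30 brighter members, Ccl2, Ccl7, Ccl9, Ccl6 and Ccl22 among them, and low fat mouse 2 was the lowest for 12, with low fat mouse 4 lowest for 11. Among high fat mice no mouse was highest for more than 8. With high fat mice 1 and 2 left out, 17 members were called higher and 2 lower, but Ccr2 lost its call (adjusted p = 0.11) and Cxcr2 gained one (0.26, adjusted p = 0.031). Without low fat mouse 2 there were 16 and 2, where Ccr2 and Pf4 lost their calls and Ccl8 gained one. Other scalings changed the split of members. It was 16 higher and 5 lower with arrays centred on their medians and 15 and 5 with quantile normalization repeated, against 17 and 2. Over all genes it was 2742 higher and 2026 lower as deposited, 2227 and 3056 with centring, and 2320 and 2771 with the repeated normalization.

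Genes of the wider pathway were read from lists that were drawn up with earlier results of these data known. Of 36 measured genes that act below chemokine receptors 21 were higher and 0 lower in high fat mice, with a median log2 difference of 0.31. The called share was 58.3 percent, and 35 of the 36 lay above the median of all gene means. Shares called were 21.5 percent of all genes and 36.2 percent of all genes above that median. Rgs1, a regulator that shortens receptor signals, was 5.62-fold higher (2.49 ± 0.25, SE). Pik3r5 and Pik3cg, subunits of the phosphoinositide 3-kinase that G proteins activate, were 2.16-fold and 1.61-fold higher, and Rgs18 was 2.63-fold higher. Limma adjusted p of these genes ran from 0.000147 (Rgs1) to 0.00124 (Pik3cg).

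Cytokine, cytokine receptor and NF-kappaB genes that drive chemokine transcription were higher in 10 of 26 and lower in 0, with a median of 0.15. The called share of 38.5 percent was near the 36.2 percent of all genes above the median of gene means, where 19 of the 26 lay. By p the first were Ifngr2, a subunit of the interferon-gamma receptor (1.79-fold), Tnfrsf1b, a receptor of tumour necrosis factor (2.15-fold), Tnf itself (1.78-fold) and Nfkb2 (1.51-fold). Il1a, Il1b, Il6, Il17a and Ifng were dim and not called. Genes of chemokine cleavage, sulfation and presentation were higher in 13 of 20 and lower in 1, with a median of 0.41. Of that list 70.0 percent were called, and 18 of the 20 lay above the median of all gene means. Mmp2, Mmp12, Adam17 and Mmp14, proteases of which Adam17 sheds membrane proteins, were 2.70-fold, 10.1-fold, 1.48-fold and 1.71-fold higher, and Mmp9 was 3.26-fold lower.

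A list of receptors of other chemoattractants, which also holds the cytokine Mif, had 6 of 11 genes higher, Mif among them. Its median was 0.37 and 0 were lower. The called share was 54.5 percent, against 21.5 percent of all genes and 36.2 percent of those above the median of all gene means. Of the 11 genes 8 lay above that median. C3ar1 and C5ar1, the receptors of complement fragments, were 3.11-fold and 3.06-fold higher, C5ar2 2.22-fold, and the cytokine Mif 1.29-fold. Limma adjusted p ran from 0.000333 (C3ar1) to 0.000886 (C5ar2). These lists hold many genes of macrophages, whose markers were higher in the same mice as given above. Whether the lists differed from other genes was not tested.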

How the data were processed

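Values are log2 expression values, 1 column per mouse, as deposited by the authors; RMA, limma and R 3.5.0 are named in the submitters' processing notes. The range of 4.41 to 14.2 fits a log2 scale. Of 33793 rows, 25335 were listed in the platform annotation, 23521 with 1 gene symbol and 1814 with several. Rows with several symbols were not used for genes, and the brightest probe set stood for each of 22180 genes (1082 had several). All 23328 Entrez identifiers matched kept their symbols. Scanner files, scan dates and detection calls were not used here.

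High fat mice (n = 5) were set against low fat mice (n = 4) with limma 3.58.1 in R 4.3.3 (lmFit and eBayes, no covariate), with Benjamini-Hochberg adjustment over all 22180 genes and a threshold of 0.05. The procedure was tested on simulated data. Differences are high fat minus low fat with SE, and intervals are 95%. The number of arrays limits the precision.

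Named genes were every called member, every member above the median of all gene means, Ccl2, Ccr2, Cxcl12, Cxcr4, Cx3cl1 and Cx3cr1 in any case, and the dim members with their range. From each pathway list up to 4 called genes in each direction with the smallest p were named. The pathway and marker lists, like the members, were chosen with earlier results of these data known. Alternatives changed the scaling, the dim-gene filter, the probe set rule, weights, covariates, thresholds and the mice included.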

Additional observations from a re-analysis of the deposited data

Results flagged for a closer look

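In 10 of 116 groups of arrays (each member in each diet) 1 mouse lay far from the others of its diet relative to the group's range. The cut-off stands for about 1 in 20 among normal values without ties. Some of these groups hold exactly equal values, as for Ccr9, Ccr10, Ccl20 and Ccl4, so the 10 are not set against that share. All 10 were of dim, uncalled members, so the values are given without comment. High fat mouse 2 was lowest for Ccl20 (5.85, next 6.00) and for Ccr6 (5.75, next 5.93), and highest for Cxcr6 (6.44, next 6.15). High fat mouse 3 was highest for Ccl28 (6.61, next 6.41), and low fat mouse 1 was lowest for the same gene (6.10, next 6.33). High fat mouse 4 was highest for Ccr9 (5.94, next 5.87), and high fat mouse 5 was lowest for Cxcl1 (6.01, next 6.37). Low fat mouse 2 was highest for Ccr10 (6.04, next 5.97), low fat mouse 3 highest for Cxcl3 (5.53, next 5.05) and low fat mouse 4 lowest for Ccl4 (6.82, next 6.90).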

How the results depend on the processing

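Of 19 called members 14 kept their call in all 20 alternatives that tested them, and 0 turned; Ccr2, Pf4, Ackr3, Cxcl12 and Cxcl11 lost it at least once, and 10 of 39 uncalled members gained one. Leaving out 1 mouse gave 15 to 18 members higher and 2 to 4 lower (4 without high fat mouse 5 or low fat mouse 4), and 2153 to 2604 genes higher and 1526 to 1826 lower. Members lower numbered 5 with median centring, with dim genes left out or with quantile normalization repeated, and 6 at an adjusted p under 0.1. Genes lower numbered 3056 with median centring, and genes higher 1716 without high fat mice 1 and 2. With a log2 difference of at least 0.5 there were 1051 genes higher and 515 lower, and 11 members higher. The labels number the mice within each diet and name no pairs. Correlations of deviations between same-numbered mice were 0.0833, 0.1264, 0.067 and 0.0479, and 2 high fat mice matched their own number best. Whether mice of the same number were paired was not tested. With the mouse number as a replicate block 15 members were higher and 5 lower, and 2421 genes were higher and 1615 lower. No low fat mouse has the number 5, so high fat mouse 5 did not enter the diet difference of that fit. Its differences were those of the fit without high fat mouse 5, as for Ccl5 with 0.0599 in both. Where a call was lost or gained the cause was not tested. Directions that turned were all of uncalled members near 0. Leaving out 1 mouse in turn gave ranges of -0.3266 to 0.1349 for Ccl17, -0.2348 to 0.1184 for Ccl5 (0.0599 without high fat mouse 5), -0.24 to 0.3368 for Cxcl10 (0.0473 without high fat mouse 3), -0.008 to 0.2114 for Ccr1, -0.0118 to 0.0828 for Ccr4, -0.016 to 0.051 for Cx3cl1, -0.1706 to 0.0481 for Cxcl3, -0.0814 to 0.0239 for Cxcl5, -0.007 to 0.1229 for Cxcr3 and -0.0587 to 0.139 for Cxcr6. Ccl5 was 0.0657 with array weights, 0.0599 with the block and 0.023 with a smooth muscle covariate, and Cxcl10 was 0.098 with array weights. Cx3cl1 was -0.0193 with centring and -0.022 with quantile normalization. Cxcr6 was -0.0307 with centring, -0.0101 with quantile normalization, -0.0623 without high fat mice 1 and 2 and -0.005 with a prostate covariate. Without high fat mice 1 and 2, Ccr4 was -0.008, Cxcl15 0.0271 and Cxcl3 0.0359, and Cxcl15 was 0.0078 with quantile normalization. With dim genes left out Cxcl11 was not tested.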

Other observations

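Ccl19 and Ccl21 are lymphoid chemokines that bind Ccr7, and their probe sets are shared by several gene copies, so they entered no comparison. The 13 probe sets listed for Ccl19 averaged 8.42, 8.57, 8.42, 8.52 and 8.64 in high fat mice 1 to 5, against 8.31, 8.44, 8.04 and 8.14 in low fat mice 1 to 4. The 9 probe sets listed for Ccl21 averaged 9.22, 7.78, 8.38, 9.05 and 9.41 in high fat mice 1 to 5, against 7.35, 11.9, 8.06 and 7.17 in low fat mice 1 to 4. Low fat mouse 2, whose smooth muscle genes were also high, stood far above all other mice for Ccl21. The lymphatic genes Prox1 (6.68) and Flt4 (8.33) were also highest in that mouse, against at most 5.86 and 7.81 in the others. Lyve1 (10.25) was not highest there. Whether these values are related was not tested.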
